A study of Mus musculus with 12 samples.

Results

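Lysosomal enzymes, cathepsins and autophagy genes were followed in mouse mammary carcinomas that regress under mifepristone, at 4 times after the drug and after withdrawal of progestin alone. The set is a list of 45 genes, chosen by name with earlier results of these data known. Its members are the probe sets (groups of short array probes) that the platform annotation assigns to 1 listed symbol alone. Of the 45 genes, 44 had such a probe set, 105 in all, among 18161 genes and 34945 probe sets that carry 1 symbol. Cd63 was not analysed here. Of the 44 members 12 had 1 probe set and 32 had several, up to 5.

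The lysosome is the acidic compartment in which cells break down proteins, glycans and lipids. Cathepsins cut proteins, glycosidases and a sulfatase strip sugars from glycoproteins, glycolipids and glycosaminoglycans, and lipases, ceramidase and cofactors handle lipids and cholesterol. A proton pump acidifies the lumen, and heavily glycosylated membrane proteins line it. In autophagy a double membrane coated with LC3 and GABARAP proteins encloses cytoplasm and delivers it to the lysosome. The transcription factors TFEB, TFE3 and MITF bind promoters of many of these genes. In the mammary gland, cathepsins and lysosomal cell death are known from involution after weaning, and macrophages that clear dying cells are rich in lysosomes.

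The data were 12 Affymetrix mouse whole-genome arrays, 2 in each of 6 groups. The tumour was C4-HD, a transplantable mammary carcinoma that depends on progestin, grown in BALB/c mice under MPA (medroxyprogesterone acetate, a synthetic progestin). Once tumours measured 50 mm2, surgery ended the MPA supply and MFP (mifepristone, which blocks the progesterone and glucocorticoid receptors) was given subcutaneously at 10 mg/kg/day. The 6 groups are MPA, no MPA with saline for 48 h, and MFP for 6 h, 12 h, 24 h or 48 h. A comparison of MFP with MPA thus changes both hormones at once, while MFP 48 h against no MPA differs in MFP. The labels do not settle the no MPA group fully: its arrays carry that source name and a saline treatment, while in the protocol text saline went to controls that kept MPA. The series text also has no 6 h group. All groups share 1 tumour line, and the sources used here do not give the age or number of the mice. The series text calls the 2 replicates of a group independent but names no animals, so a p-value reflects the variation among these 12 arrays, which may be technical.

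Each deposited value is a log2 ratio to the averaged MPA level (on the linear scale, 2 arrays), so differences between arrays are kept and the level of a gene above background is lost. Whether markers of mammary epithelium are present can therefore not be read from these values. A gene with several probe sets is shown by the one with the largest SD over the 12 arrays, which favours probe sets that change. Differences are in log2 units with their standard error from limma (n = 2 arrays per group), and a gene rose or fell where its Benjamini-Hochberg adjusted p over all 18161 genes was under 0.05. The RNA was from fixed tumours embedded in paraffin. The difference between 3' and 5' probe sets of the Actb control, a sign of broken RNA, was -0.07 and 0.05 under MPA, -0.09 and 0.14 without it, 0.20 and 0.13 after 6 h, 0.34 and 0.36 after 12 h, 0.35 and 0.50 after 24 h, 0.47 and 0.59 after 48 h of MFP. The median over 13 liver genes was 3.56 and 4.25 at 24 h and at most 1.23 in the other arrays. Exocrine pancreas genes (12) had medians of 0.51 and -0.79 under MPA, -0.68 and -0.64 without it, 6.16 and 4.60 after 6 h, 0.30 and 0.82 after 12 h, 1.01 and 6.88 after 24 h, 4.84 and 5.66 after 48 h of MFP. Skeletal muscle genes (12) had a median of 3.77 in MFP 48 h replicate 1 and at most 0.87 elsewhere.

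Most rises of cathepsin, lipid enzyme and glycosidase genes under MFP came at 24 h and 48 h. Map1lc3b and Tpp1 were already higher at 6 h, and Gabarapl1 ended below MPA in the probe set shown. Of the 44 members 27 (61.4%) had their highest group mean at 48 h of MFP, against 22.3% of all genes. None had it in MPA, against 16.7% of all genes. Because the list was chosen with earlier results of these data known, these shares describe it and do not test it. After withdrawal of MPA alone none passed the test. In bulk tissue more cells of a type and more RNA per cell cannot be told apart, in any of these comparisons.

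**Figure D1:**
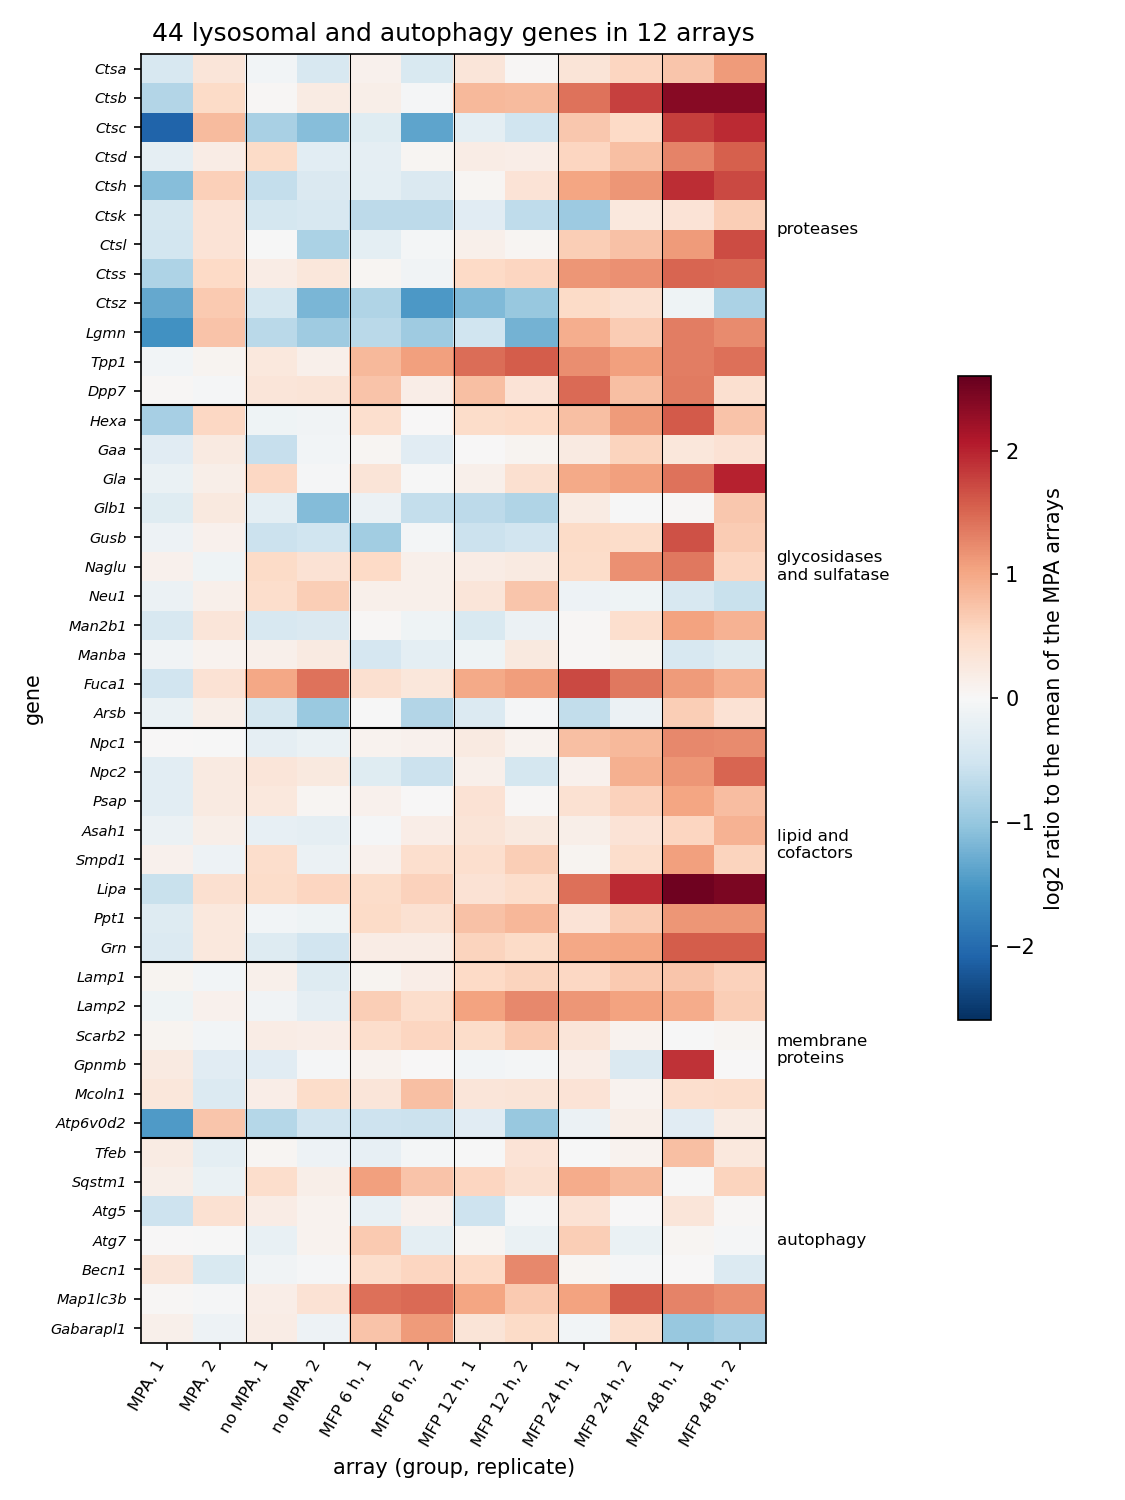
Log2 ratio relative to MPA (colour) for the 44 genes (rows, ordered by role) in the 12 arrays (columns, group and replicate). Most rows of the upper 3 blocks turn red towards 48 h of MFP, while Ctsz, Neu1 and Manba lie below 0 there. In the lowest block Map1lc3b is red from 6 h on and Gabarapl1 is blue at 48 h.

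Among the 12 lysosomal proteases, 7 rose at 48 h of MFP against MPA and none fell, with a list median of 1.45, where the median of all genes was 0.00045. Over the whole list of 44, 19 rose (6.48% of all genes did) and 1 fell (6.02% of all genes), with a median of 0.95. The papain-like cysteine protease genes led. Ctsb (probe set 1417490_at), which encodes cathepsin B, stood at -0.77 and 0.50 under MPA, 0.03 and 0.21 without it, 0.16 and -0.03 after 6 h, 0.83 and 0.81 after 12 h, 1.41 and 1.78 after 24 h, 2.37 and 2.36 after 48 h of MFP. Both 24 h arrays and both 48 h arrays lay above all arrays of the other groups, and the 12 h arrays lay in between. At 48 h the difference to MPA was 2.50 ± 0.34, adjusted p = 0.00366, a 5.67-fold rise, and at 24 h it was 1.73 ± 0.34, adjusted p = 0.0133. All 5 probe sets of Ctsb had positive differences at 48 h, from 1.08 to 2.50.

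Ctss encodes cathepsin S, which trims the invariant chain in antigen-presenting cells. Its probe set 1448591_at gave -0.80 and 0.51 under MPA, 0.19 and 0.30 without it, 0.05 and -0.09 after 6 h, 0.52 and 0.55 after 12 h, 1.14 and 1.20 after 24 h, 1.52 and 1.49 after 48 h of MFP. The 24 h and 48 h arrays were above every array of the other groups, with rises of 1.31 ± 0.34, adjusted p = 0.0395 at 24 h and 1.65 ± 0.34, adjusted p = 0.014 at 48 h. Ctsd, the gene of the aspartic protease cathepsin D, had -0.23 and 0.20 under MPA, 0.51 and -0.26 without it, -0.23 and 0.05 after 6 h, 0.19 and 0.17 after 12 h, 0.55 and 0.78 after 24 h, 1.28 and 1.56 after 48 h of MFP (probe set 1448118_a_at). Against MPA it passed at 48 h alone (1.44 ± 0.28, adjusted p = 0.0115). Ctsl, encoding the cysteine protease cathepsin L, had -0.48 and 0.36 under MPA, -0.02 and -0.83 without it, -0.26 and -0.04 after 6 h, 0.13 and 0.05 after 12 h, 0.64 and 0.75 after 24 h, 1.10 and 1.69 after 48 h of MFP (probe set 1451310_a_at). It rose at 48 h (1.46 ± 0.34, adjusted p = 0.0224), and its second probe set stood at -0.20.

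Ctsc and Ctsh, genes of the aminopeptidases cathepsin C, which activates granule serine proteases, and cathepsin H, rose by 2.50 ± 0.71 and 2.06 ± 0.43 at 48 h. For both, the MPA arrays were far apart. Ctsh had -1.11 and 0.62 under MPA, -0.61 and -0.37 without it, -0.26 and -0.37 after 6 h, 0.05 and 0.36 after 12 h, 1.03 and 1.14 after 24 h, 1.92 and 1.71 after 48 h of MFP (probe set 1443814_x_at). Its 24 h and 48 h arrays were above all others. Ctsc stood at -2.08 and 0.82 under MPA, -0.84 and -1.11 without it, -0.32 and -1.38 after 6 h, -0.26 and -0.52 after 12 h, 0.70 and 0.51 after 24 h, 1.80 and 1.94 after 48 h of MFP (probe set 1437939_s_at). MPA replicate 1 was the lowest of the 12 arrays for Ctsc, and replicate 2 was above all arrays except those at 48 h. Lgmn, the gene of the asparaginyl endopeptidase legumain, also had MPA arrays far apart, with -1.58 and 0.74 under MPA, -0.70 and -0.93 without it, -0.70 and -0.93 after 6 h, -0.52 and -1.23 after 12 h, 0.95 and 0.66 after 24 h, 1.34 and 1.22 after 48 h of MFP (probe set 1448883_at). Its difference to MPA at 48 h was 1.70 ± 0.57, adjusted p = 0.0813, and against the no MPA arrays, which lay close together, it rose by 2.09 ± 0.57 (adjusted p = 0.0391).

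Tpp1, the tripeptidyl peptidase gene mutated in a neuronal lysosomal storage disease, took another course. It stood at -0.07 and 0.06 under MPA, 0.28 and 0.14 without it, 0.84 and 1.07 after 6 h, 1.45 and 1.58 after 12 h, 1.21 and 1.06 after 24 h, 1.33 and 1.44 after 48 h of MFP (probe set 1448313_at). All 8 MFP arrays were above all 4 arrays without MFP, already at 6 h. Its rises against MPA were 0.96 ± 0.19, adjusted p = 0.0427 at 6 h, 1.52 ± 0.19, adjusted p = 0.00635 at 12 h, 1.14 ± 0.19 at 24 h and 1.38 ± 0.19 at 48 h, and its slope over the MFP times did not pass (0.09 ± 0.08, adjusted p = 0.548, per doubling of time). Its second probe set gave 0.55, 0.89, 0.39 and 0.81 at the same times.

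Ctsk, encoding the collagen-cleaving cathepsin K of osteoclasts and fibroblasts, did not pass in any comparison. It stood at -0.46 and 0.35 under MPA, -0.46 and -0.41 without it, -0.69 and -0.69 after 6 h, -0.29 and -0.67 after 12 h, -0.95 and 0.28 after 24 h, 0.36 and 0.65 after 48 h of MFP (probe set 1450652_at). Its 48 h arrays were the highest, and the difference to MPA was 0.56 ± 0.38, adjusted p = 0.398. Ctsz had its highest mean at 24 h and stood at -0.14 ± 0.55 at 48 h. Dpp7, a dipeptidyl peptidase gene, had 1.14 ± 0.35 at 24 h and 0.89 ± 0.35 at 48 h, both without passing (adjusted p = 0.0729 and 0.127). Ctsa, of a carboxypeptidase that protects a galactosidase and a sialidase, stood at 0.96 ± 0.29, adjusted p = 0.0587 against MPA and rose against no MPA (1.17 ± 0.29).

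**Figure D2:**
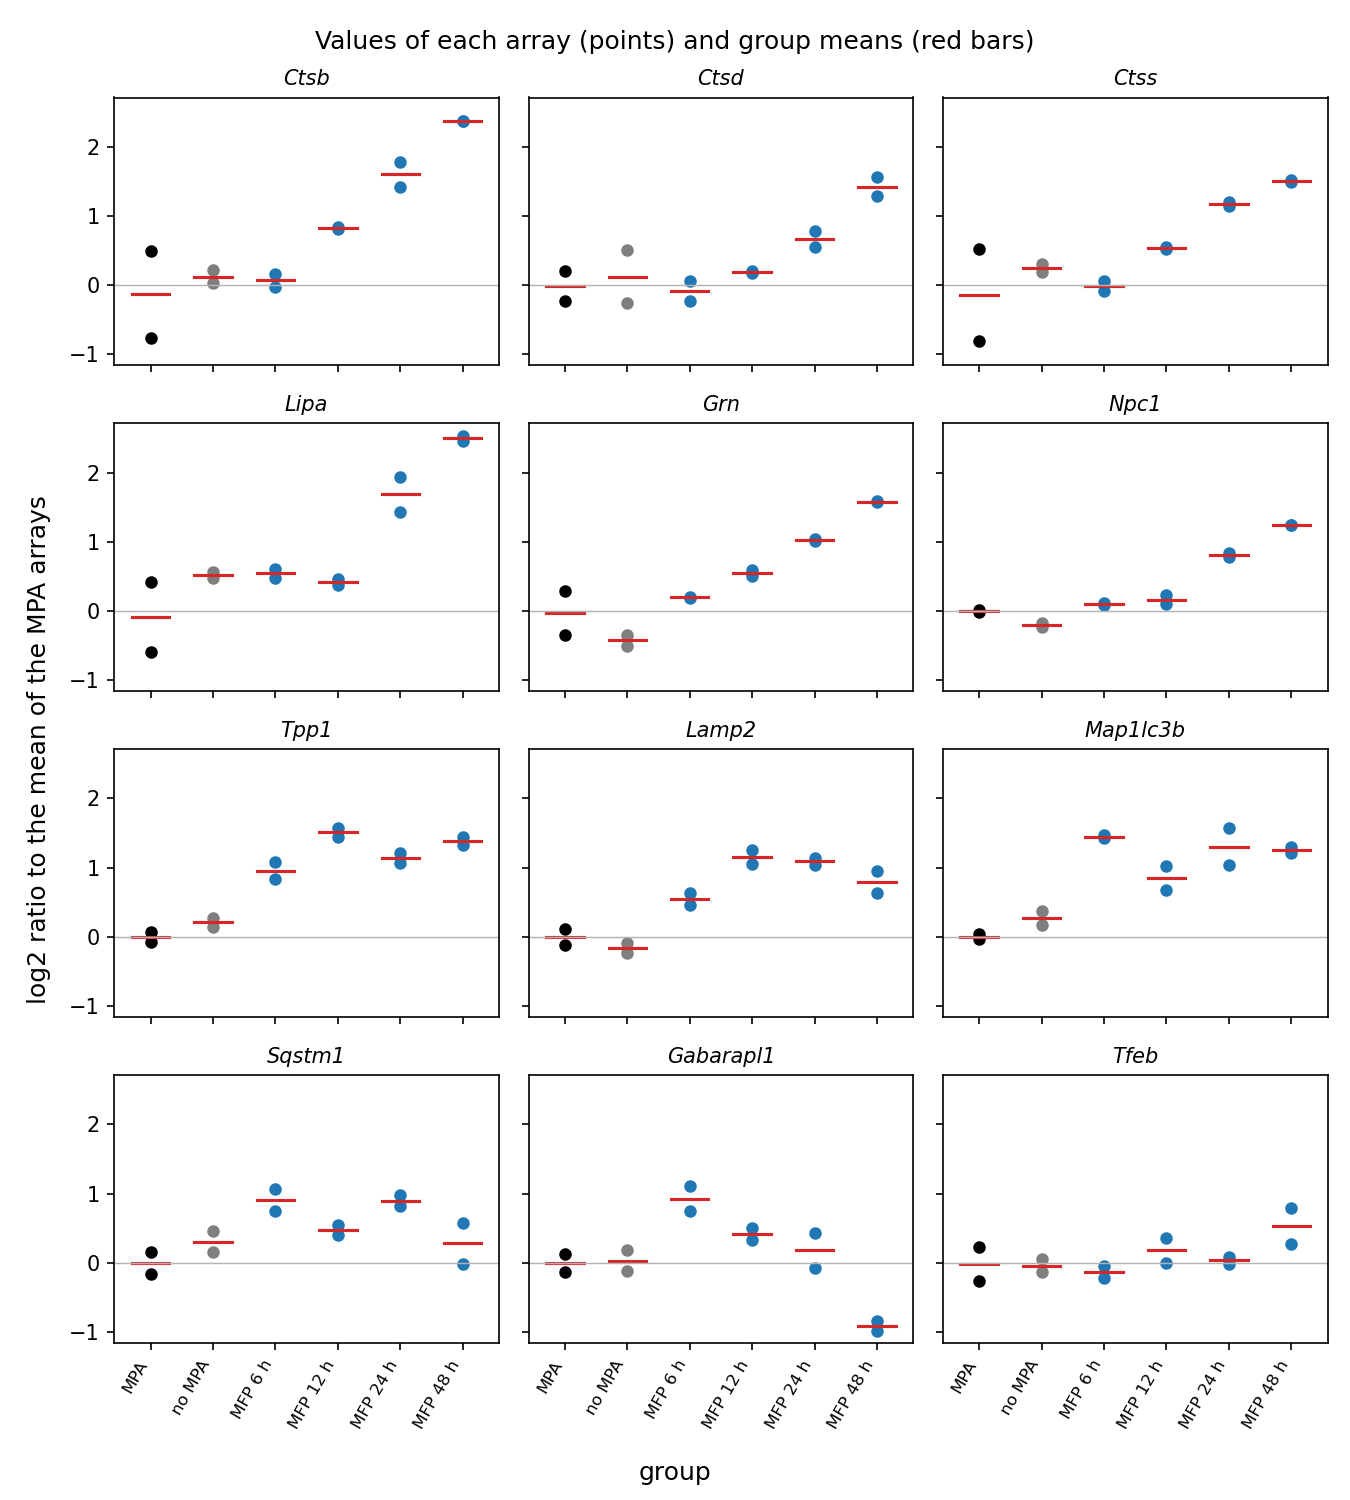
Log2 ratio relative to MPA (vertical axis) for 12 genes in the 6 groups (horizontal axis), with 1 point per array and a red bar at the mean of the 2 arrays. Ctsb, Ctss, Lipa, Grn and Npc1 rise in the later groups, Tpp1, Lamp2 and Map1lc3b lie above MPA from 6 h on, and Gabarapl1 falls below MPA at 48 h.

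Of 11 glycosidase and sulfatase genes, 3 rose at 48 h against MPA (6.48% of all genes) and none fell (6.02%), with a list median of 0.97. Gla, the gene of alpha-galactosidase A, stood at -0.17 and 0.15 under MPA, 0.54 and -0.03 without it, 0.33 and -0.0034 after 6 h, 0.12 and 0.42 after 12 h, 0.99 and 1.06 after 24 h, 1.42 and 1.99 after 48 h of MFP (probe set 1418248_at) and rose by 1.04 ± 0.28 at 24 h and 1.71 ± 0.28, adjusted p = 0.00617 at 48 h. Its other probe sets stood at 0.22 and -0.04 at 48 h. Man2b1, a lysosomal alpha-mannosidase gene, rose by 1.03 ± 0.26. Fuca1, of the enzyme that removes fucose, had the largest difference of the members after withdrawal of MPA alone, without passing. Its arrays stood at -0.50 and 0.37 under MPA, 1.01 and 1.42 without it, 0.42 and 0.30 after 6 h, 0.99 and 1.10 after 12 h, 1.71 and 1.37 after 24 h, 1.10 and 0.94 after 48 h of MFP (probe set 1416109_at). All no MPA arrays were above both MPA arrays, with a difference of 1.28 ± 0.29, adjusted p = 0.384. At 48 h of MFP it rose against MPA (1.09 ± 0.29, adjusted p = 0.0353) and stood at -0.19 ± 0.29 against no MPA.

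Hexa encodes the alpha subunit of hexosaminidase. Its arrays had -0.86 and 0.54 under MPA, -0.11 and -0.08 without it, 0.44 and 0.0068 after 6 h, 0.47 and 0.53 after 12 h, 0.78 and 1.10 after 24 h, 1.59 and 0.74 after 48 h of MFP (probe set 1449024_a_at). Both 48 h arrays were above both MPA arrays, which lay far apart, and the difference at 48 h was 1.33 ± 0.42, adjusted p = 0.064. Gusb, the beta-glucuronidase gene, had -0.13 and 0.12 under MPA, -0.55 and -0.52 without it, -0.90 and -0.05 after 6 h, -0.55 and -0.49 after 12 h, 0.49 and 0.47 after 24 h, 1.65 and 0.65 after 48 h of MFP (probe set 1430332_a_at). The no MPA and 12 h arrays were below both MPA arrays, and both 48 h arrays were above all arrays up to 24 h. Its rise passed against no MPA (1.69 ± 0.34, adjusted p = 0.0111) and not against MPA (1.16 ± 0.34, adjusted p = 0.0516). Arsb, a sulfatase gene, also rose against no MPA alone (1.22 ± 0.31, and 0.52 ± 0.31, adjusted p = 0.325 against MPA).

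Neu1, encoding the lysosomal sialidase, was the member of its group that fell against no MPA. It stood at -0.15 and 0.14 under MPA, 0.45 and 0.64 without it, 0.13 and 0.13 after 6 h, 0.32 and 0.72 after 12 h, -0.14 and -0.10 after 24 h, -0.42 and -0.59 after 48 h of MFP (probe set 1448481_at). The 48 h arrays were the lowest and the no MPA arrays were above both MPA arrays. It fell at 48 h against no MPA (-1.05 ± 0.21, adjusted p = 0.0107) and did not pass against MPA (-0.50 ± 0.21, adjusted p = 0.159). Its probe sets disagreed, with -1.05, 0.20 and -0.18 against no MPA. Manba, of a beta-mannosidase, stood at -0.37 ± 0.20 against MPA. Naglu (0.97 ± 0.31, adjusted p = 0.0692), Glb1 (0.40 ± 0.34) and Gaa (0.36 ± 0.26), whose enzymes degrade heparan sulfate, galactosides and glycogen, did not pass.

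Among 8 genes of lipid breakdown and lysosomal cofactors, 7 rose at 48 h against MPA (6.48% of all genes) and none fell (6.02%), with a list median of 1.21. The eighth, Smpd1 of acid sphingomyelinase, stood at 0.83 ± 0.27, adjusted p = 0.0763. Lipa, the gene of the acid lipase that frees cholesterol from its esters, had the largest rise of the list. It stood at -0.59 and 0.42 under MPA, 0.47 and 0.56 without it, 0.48 and 0.60 after 6 h, 0.37 and 0.46 after 12 h, 1.43 and 1.94 after 24 h, 2.53 and 2.45 after 48 h of MFP (probe set 1423141_at). The 48 h arrays were above those at 24 h, which were above all others. Its rises were 1.77 ± 0.30, adjusted p = 0.0069 at 24 h and 2.58 ± 0.30, adjusted p = 0.00274, or 5.97-fold, at 48 h. Its other probe sets gave 1.31 and 0.53 at 48 h.

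Npc1 and Npc2 encode the membrane and soluble partners that export cholesterol from lysosomes. Npc1 had 0.01 and -0.01 under MPA, -0.23 and -0.18 without it, 0.09 and 0.11 after 6 h, 0.23 and 0.10 after 12 h, 0.78 and 0.84 after 24 h, 1.25 and 1.24 after 48 h of MFP (probe set 1423086_at). Replicates were close in every group, and the 24 h and 48 h arrays were above all others. It rose at 24 h (0.81 ± 0.17, adjusted p = 0.019) and at 48 h (1.24 ± 0.17, adjusted p = 0.00375). Npc2 stood at -0.28 and 0.23 under MPA, 0.32 and 0.25 without it, -0.32 and -0.57 after 6 h, 0.14 and -0.45 after 12 h, 0.11 and 0.93 after 24 h, 1.14 and 1.504 after 48 h of MFP (probe set 1455768_at). It rose at 48 h (1.35 ± 0.32, adjusted p = 0.0237), while its other probe sets ranged from -0.49 to 0.72.

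Grn encodes progranulin, a secreted and lysosomal glycoprotein. Its arrays had -0.35 and 0.28 under MPA, -0.34 and -0.51 without it, 0.20 and 0.19 after 6 h, 0.59 and 0.50 after 12 h, 1.01 and 1.04 after 24 h, 1.58 and 1.57 after 48 h of MFP (probe set 1456567_x_at). Replicates of each MFP group were nearly equal and each later time was higher. The rise was 1.06 ± 0.22, adjusted p = 0.0183 at 24 h, 1.61 ± 0.22, adjusted p = 0.00375 at 48 h and 2.00 ± 0.22 at 48 h against no MPA. Ppt1 (palmitoyl-protein thioesterase, 1.18 ± 0.23), Psap (the precursor of the saposins, 0.94 ± 0.23) and Asah1 (acid ceramidase, 0.74 ± 0.21, adjusted p = 0.0446) rose at 48 h as well.

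Of 6 measured membrane protein genes, only Lamp2 rose at 48 h against MPA (6.48% of all genes), and none fell (6.02%), with a list median of 0.57. Lamp2, a main glycoprotein of the lysosomal membrane with an isoform that takes up proteins, stood at -0.12 and 0.11 under MPA, -0.10 and -0.24 without it, 0.64 and 0.47 after 6 h, 1.05 and 1.26 after 12 h, 1.14 and 1.04 after 24 h, 0.96 and 0.63 after 48 h of MFP (probe set 1416344_at). All 8 MFP arrays were above the 4 arrays without MFP, with the highest group mean at 12 h. Its differences to MPA were 0.56 ± 0.20, adjusted p = 0.233 at 6 h, 1.16 ± 0.20, adjusted p = 0.0157 at 12 h, 1.10 ± 0.20, adjusted p = 0.0102 at 24 h and 0.80 ± 0.20, adjusted p = 0.0306 at 48 h. All 4 probe sets had positive differences at 12 h, from 0.32 to 1.16.

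Lamp1, the companion glycoprotein gene, had 0.07 and -0.07 under MPA, 0.14 and -0.34 without it, 0.07 and 0.18 after 6 h, 0.52 and 0.57 after 12 h, 0.54 and 0.67 after 24 h, 0.72 and 0.59 after 48 h of MFP (probe set 1415880_a_at). The MFP arrays from 12 h on were above all MPA and no MPA arrays. It rose against no MPA at 48 h (0.76 ± 0.21, adjusted p = 0.0405) and stood at 0.66 ± 0.21, adjusted p = 0.0665 against MPA. Scarb2, whose product carries glucocerebrosidase to lysosomes, had 0.51 ± 0.19 at 6 h, 0.58 ± 0.19 at 12 h and 0.03 ± 0.19 at 48 h, and passed at none of the times (adjusted p = 0.118 at 12 h). Mcoln1, the gene of the calcium channel TRPML1, had 0.29 and -0.36 under MPA, 0.17 and 0.48 without it, 0.32 and 0.79 after 6 h, 0.32 and 0.34 after 12 h, 0.35 and 0.10 after 24 h, 0.43 and 0.46 after 48 h of MFP (probe set 1431305_at). Its 48 h arrays were above both MPA arrays and overlapped the no MPA arrays, and it did not pass at 48 h (0.48 ± 0.26, adjusted p = 0.277).

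Gpnmb, a glycoprotein gene switched on in lysosome-rich macrophages, was high in 1 array in the probe set shown. It stood at 0.24 and -0.29 under MPA, -0.29 and -0.03 without it, 0.08 and 0.01 after 6 h, -0.08 and -0.06 after 12 h, 0.18 and -0.37 after 24 h, 1.88 and 0.0049 after 48 h of MFP (probe set 1439345_at). Apart from MFP 48 h replicate 1 no array was above 0.24, and the difference at 48 h was 0.96 ± 0.48, adjusted p = 0.234. In that array the neutrophil markers had a median of 3.35, against 0.92 in replicate 2, and the muscle genes were high too. Their part in the result was not tested. Atp6v0d2, a proton pump subunit gene of osteoclasts and macrophages, had -1.47 and 0.71 under MPA, -0.73 and -0.49 without it, -0.55 and -0.55 after 6 h, -0.30 and -0.98 after 12 h, -0.16 and 0.16 after 24 h, -0.29 and 0.21 after 48 h of MFP (probe set 1444176_at). The MPA arrays were the lowest and the highest of all 12, and no comparison passed (0.34 ± 0.55, adjusted p = 0.763 at 48 h).

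Of 7 autophagy genes 1 rose (6.48% of all genes) and 1 fell (6.02%) at 48 h against MPA, with a list median of 0.25. At 6 h 1 rose (0.314% of all genes), with a list median of 0.55. Map1lc3b, which encodes LC3B of the autophagosome membrane, stood at 0.04 and -0.04 under MPA, 0.17 and 0.37 without it, 1.42 and 1.47 after 6 h, 1.03 and 0.68 after 12 h, 1.04 and 1.57 after 24 h, 1.30 and 1.22 after 48 h of MFP (probe set 1415929_at). All 8 MFP arrays were above the MPA and no MPA arrays, and the 6 h group had the highest mean. It rose at 6 h (1.45 ± 0.23, adjusted p = 0.0253, 2.73-fold), at 24 h (1.31 ± 0.23, adjusted p = 0.00735) and at 48 h (1.26 ± 0.23, adjusted p = 0.00902), and stood at 0.85 ± 0.23, adjusted p = 0.0668 at 12 h. Its 4 probe sets differed in size, with 1.45, 0.65, 0.61 and 0.20 at 6 h.

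Gabarapl1 encodes a GABARAP protein of the same membrane. It stood at 0.13 and -0.14 under MPA, 0.19 and -0.13 without it, 0.74 and 1.11 after 6 h, 0.33 and 0.50 after 12 h, -0.07 and 0.43 after 24 h, -0.98 and -0.84 after 48 h of MFP (probe set 1416418_at). Both 6 h arrays were the highest of all 12 and both 48 h arrays the lowest. The difference to MPA was 0.93 ± 0.24, adjusted p = 0.103 at 6 h and -0.90 ± 0.24, adjusted p = 0.0371 at 48 h, a fall that passed, as did the fall against no MPA (-0.94 ± 0.24, adjusted p = 0.0307) and the downward slope over the MFP times (-0.57 ± 0.09, adjusted p = 0.00471). The second probe set shared the 6 h value (0.73) but stood at 0.04 at 48 h. With array weights, 0 members fell at 48 h against MPA. The mean of a gene's probe sets gave 0 falls there and 0 against no MPA. Centring on array medians, robust moderation, the SD filter and leaving out shared probe sets kept 1 fall against MPA.

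Sqstm1, the gene of the autophagy receptor p62, had 0.15 and -0.17 under MPA, 0.46 and 0.15 without it, 1.07 and 0.74 after 6 h, 0.55 and 0.41 after 12 h, 0.97 and 0.82 after 24 h, -0.01 and 0.58 after 48 h of MFP (probe set 1450957_a_at). Its 6 h and 24 h arrays were above all MPA and no MPA arrays, and it missed the threshold at both times (0.91 ± 0.25, adjusted p = 0.12 and 0.91 ± 0.25, adjusted p = 0.0517). Its second probe set stood at 0.09 and -0.05. Becn1, of a lipid kinase complex that starts autophagosomes, had 0.93 ± 0.29, adjusted p = 0.115 at 12 h, with probe sets of both signs. Atg5 (0.25 ± 0.32) and Atg7 (0.0063 ± 0.33), of the machinery that attaches LC3 to lipid, did not pass at 48 h. Tfeb, the gene of the transcription factor, had 0.22 and -0.26 under MPA, 0.06 and -0.14 without it, -0.22 and -0.05 after 6 h, -0.0001 and 0.36 after 12 h, -0.02 and 0.08 after 24 h, 0.79 and 0.27 after 48 h of MFP (probe set 1422566_at). Its groups overlapped up to 24 h, and at 48 h the difference was 0.55 ± 0.25, adjusted p = 0.192.

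The comparisons with MPA grew with time. At 6 h 2 members rose (0.314% of all genes rose) and none fell (0.942%), where 1.26% of all genes were called. These were Map1lc3b and Tpp1. Without any one of the 4 arrays of this comparison, 0 members were called. At 12 h 2 rose (1.66% of all genes) and none fell (2.62%), where 4.28% were called. These were Tpp1 and Lamp2. The count was 1 or 0 when the first or second 12 h array was left out, and 7 when MPA replicate 2 was. Both 6 h arrays were above both MPA arrays for 14 of the 44 members (23.1% of all genes) and below them for 3 (22%). At 12 h 20 were above (24.5%) and 2 below (23.3%). The exocrine pancreas genes had medians of 6.16 and 4.60 in the 6 h arrays and of 0.30 and 0.82 in the 12 h arrays. Their part in these results was not tested. The macrophage list median was -0.29 at 6 h and 0.08 at 12 h. Of 18 markers 0 were called at either time in limma, against 1.26% and 4.28% of all genes. At each time 1 marker had an unadjusted p under 0.05, against 15% and 18.2% of all genes. The part of macrophages in the early calls was not tested.

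At 24 h 10 members rose (4.55% of all genes) and none fell (4.2%), where 8.75% were called, with a list median of 0.54. In descending order these were Lipa, Ctsb, Fuca1, Ctss, Map1lc3b, Tpp1, Lamp2, Grn, Gla and Npc1. The count was 5 when MPA replicate 1 was left out and 3 when the second 24 h array was. Both 24 h arrays were above both MPA arrays for 24 of the 44 members (22.2% of all genes) and below them for 0 (27.3%). In the 24 h arrays the liver genes were high, as were the exocrine pancreas genes in replicate 2 (median 6.88). Their part in the result was not tested. Lipa, Ctsb, Ctss, Grn, Gla and Npc1 had higher means at 48 h, while Fuca1 was highest at 24 h.

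At 48 h 20 of the 44 members were called, against 12.5% of all genes, and Lipa, Ctsc, Ctsb, Ctsh, Gla and Ctss rose most. The count was 9 when MPA replicate 1 was left out, and 10 or 13 when the first or second 48 h array was. Both 48 h arrays were above both MPA arrays for 32 members (26.1% of all genes) and below them for 3 (27.3%). In the 48 h arrays the exocrine pancreas genes were high (medians 4.84 and 5.66), as were the muscle genes in replicate 1 (3.77). Their part in the result was not tested. Over the 105 probe sets, 33 rose and 1 fell, against 10.5% of all probe sets called. Of the 32 members with several probe sets, only 17 had differences of the same sign in all of them. No member had called probe sets in both directions. In a fit on the arrays of the compared groups alone, with no spread shared from other groups, 0 members were called at each of the 4 times. At most 0.639% of all genes were called there. With the Actb difference as a covariate the counts were 0 in all comparisons, where at most 0.00551% of all genes passed. Quantile normalization gave 0 at 24 h and 48 h (0.149% and 0% of all genes).

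Withdrawal of MPA alone gave no call. Of the 44 members 0 passed (0% of all genes), 10 had both no MPA arrays above both MPA arrays (18.7% of all genes), 4 had both below (17.3%), and 3 had an unadjusted p under 0.05 in limma (6.82%, against 6.57% of all genes). With each of the other settings tried the count was also 0. The list median was -0.02. The smallest p belonged to Fuca1 (1.28 ± 0.29, adjusted p = 0.384).

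Set against no MPA at the same time of 48 h, 21 members were higher under MFP (7.49% of all genes) and 2 lower (5.03%), Neu1 and Gabarapl1, with a median of 0.98. The largest rises were Ctsc (2.85 ± 0.71, adjusted p = 0.0271), Ctsh (2.31 ± 0.43), Ctsb (2.25 ± 0.34), Lgmn, Grn and Lipa (1.98 ± 0.30). By role, 9 of 12 proteases, 4 of 11 glycosidases and sulfatase, 5 of 8 lipid genes, 2 of 6 membrane protein genes and 1 of 7 autophagy genes rose. Both 48 h arrays were above both no MPA arrays for 33 members (25.2% of all genes) and below them for 4 (29.9%). Of all genes 12.5% were called. The count of 23 was 12 when either 48 h array was left out, and 11 or 8 when the first or second no MPA array was. It was 19 in a fit on the compared groups alone (9.22% of all genes), 1 after quantile normalization (0.639%) and 0 with the Actb covariate (0%). The same 48 h arrays serve both comparisons at that time.

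**Figure D3:**
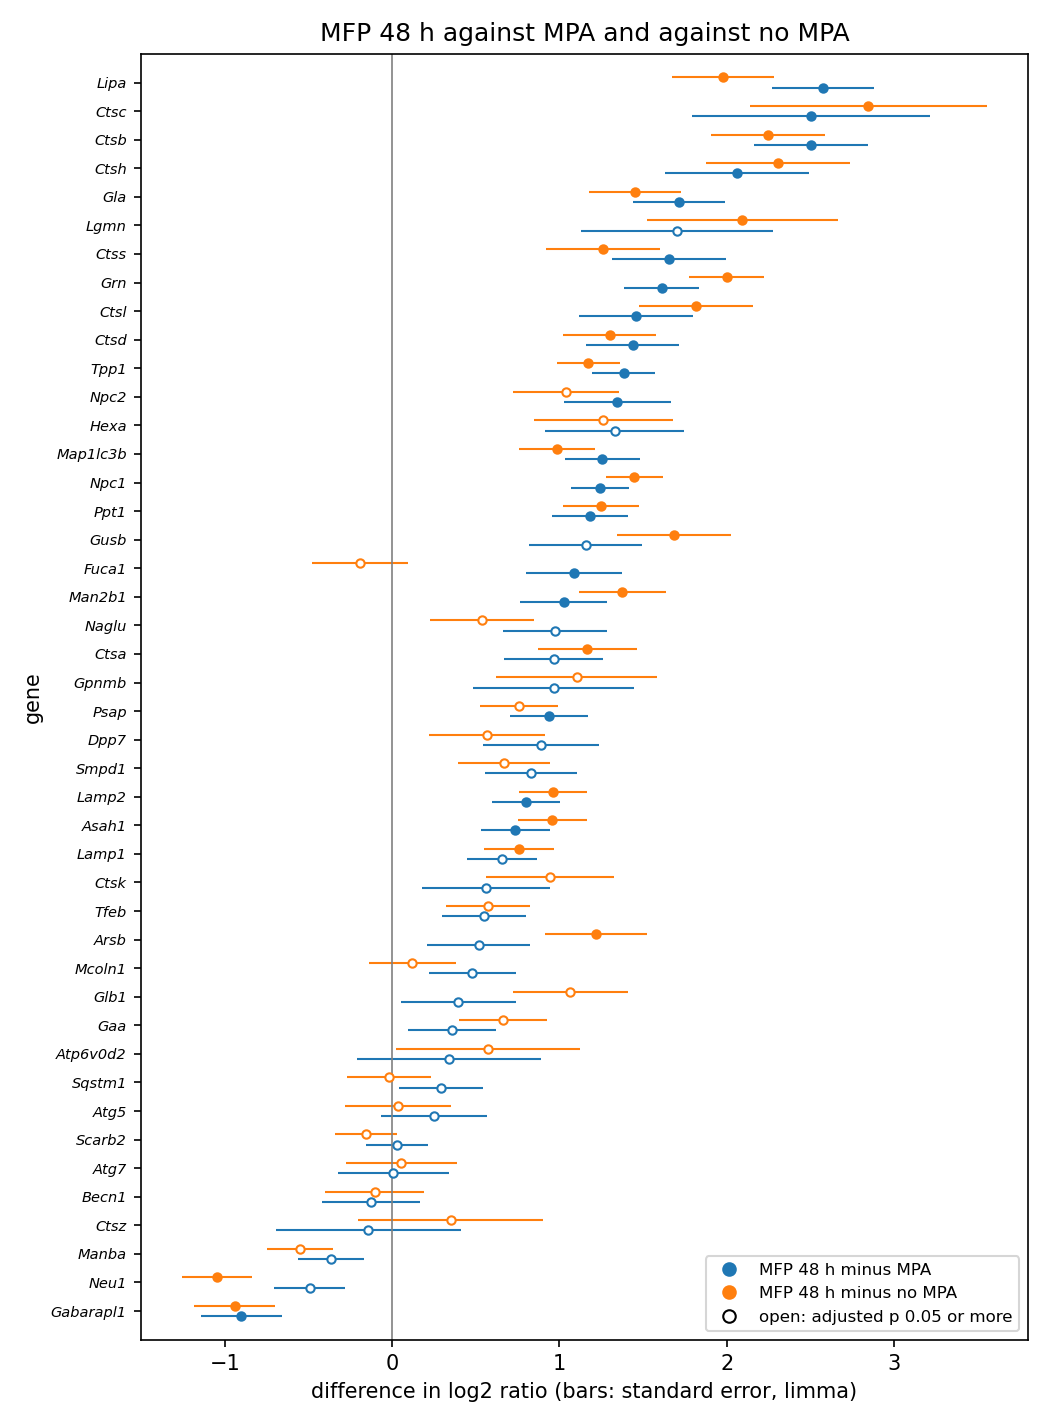
Difference in log2 ratio (horizontal axis, with standard error from limma) of MFP 48 h against MPA (blue) and against no MPA (orange) for the 44 genes, ordered by the former. Filled points have an adjusted p under 0.05. Lipa is highest against MPA and Ctsc against no MPA, Gabarapl1 is lowest against MPA and Neu1 against no MPA.

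The slope on the log2 of hours, fitted on the 8 MFP arrays without MPA, tested whether the members differed between MFP times. A positive slope passed the test for 17 members (6.82% of all genes) and a negative slope for 1 (4.39%), where 11.2% of all genes were called, with a median of 0.25 per doubling of time. The steepest belonged to Ctsc (0.92 ± 0.11, adjusted p = 0.00182), Lgmn (0.80 ± 0.13), Ctsb (0.77 ± 0.06, adjusted p = 0.000512), Ctsh (0.73 ± 0.06) and Lipa (0.71 ± 0.11). By role, 8 of 12 proteases, 4 of 11 glycosidases and sulfatase and 5 of 8 lipid genes had a positive slope that passed, and 0 of 6 membrane protein genes did. Over all 44 members, whether they passed or not, 35 slopes were above 0. Tpp1, Lamp2 (0.07 ± 0.09) and Map1lc3b (-0.01 ± 0.09), the members called at 6 h or 12 h, had no slope that passed. Without the 24 h arrays, a check chosen after seeing the data, 18 members were called (10.9% of all genes). Quantile normalization left 16 (10.9%) and the Actb covariate 0 (0%).

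Macrophage markers moved with the later rise, and so did fibroblast and matrix markers. Of 18 macrophage markers 14 rose at 48 h against MPA (6.48% of all genes) and none fell (6.02%), with a list median of 2.05. Among the 14 were the scavenger receptor gene Msr1 (3.86 ± 0.62) and Cd68, itself a lysosomal membrane protein gene (2.73 ± 0.33). The list median per array was -0.87 and 0.54 under MPA, -0.46 and -0.39 without it, -0.63 and -0.54 after 6 h, 0.03 and -0.11 after 12 h, 0.44 and 0.99 after 24 h, 1.85 and 1.83 after 48 h of MFP. The 12 proteases had medians of -0.63 and 0.43 under MPA, -0.05 and -0.39 without it, -0.24 and -0.23 after 6 h, 0.16 and 0.11 after 12 h, 0.83 and 0.77 after 24 h, 1.33 and 1.47 after 48 h of MFP. In the macrophage and protease lists MPA replicate 1 was low, MPA replicate 2 was above the 6 h arrays, and the 48 h arrays were the highest. For the 7 autophagy genes the medians were 0.13 and -0.14 under MPA, 0.17 and 0.09 without it, 0.68 and 0.56 after 6 h, 0.33 and 0.41 after 12 h, 0.38 and 0.08 after 24 h, 0.04 and 0.02 after 48 h of MFP, highest at 6 h, when the macrophage medians were below 0. The fibroblast and matrix medians were -0.93 and 0.56 under MPA, and -0.70 and -0.51 without it. At 6 h of MFP they were -0.88 and -0.31, and at 12 h -0.45 and -0.30. The 24 h arrays had 0.53 and 0.57, and the 48 h arrays 1.48 and 1.66. Of these markers 11 of 14 rose at 48 h against MPA (median 1.76), as did 4 of 11 neutrophil markers, while 4 of 12 luminal epithelial markers fell and 1 rose. The part of these cells in the lysosomal rise was not tested. Since values are ratios, a marker near background cannot be recognised. The Actb 3' minus 5' difference was also highest at 48 h.

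**Figure D4:**
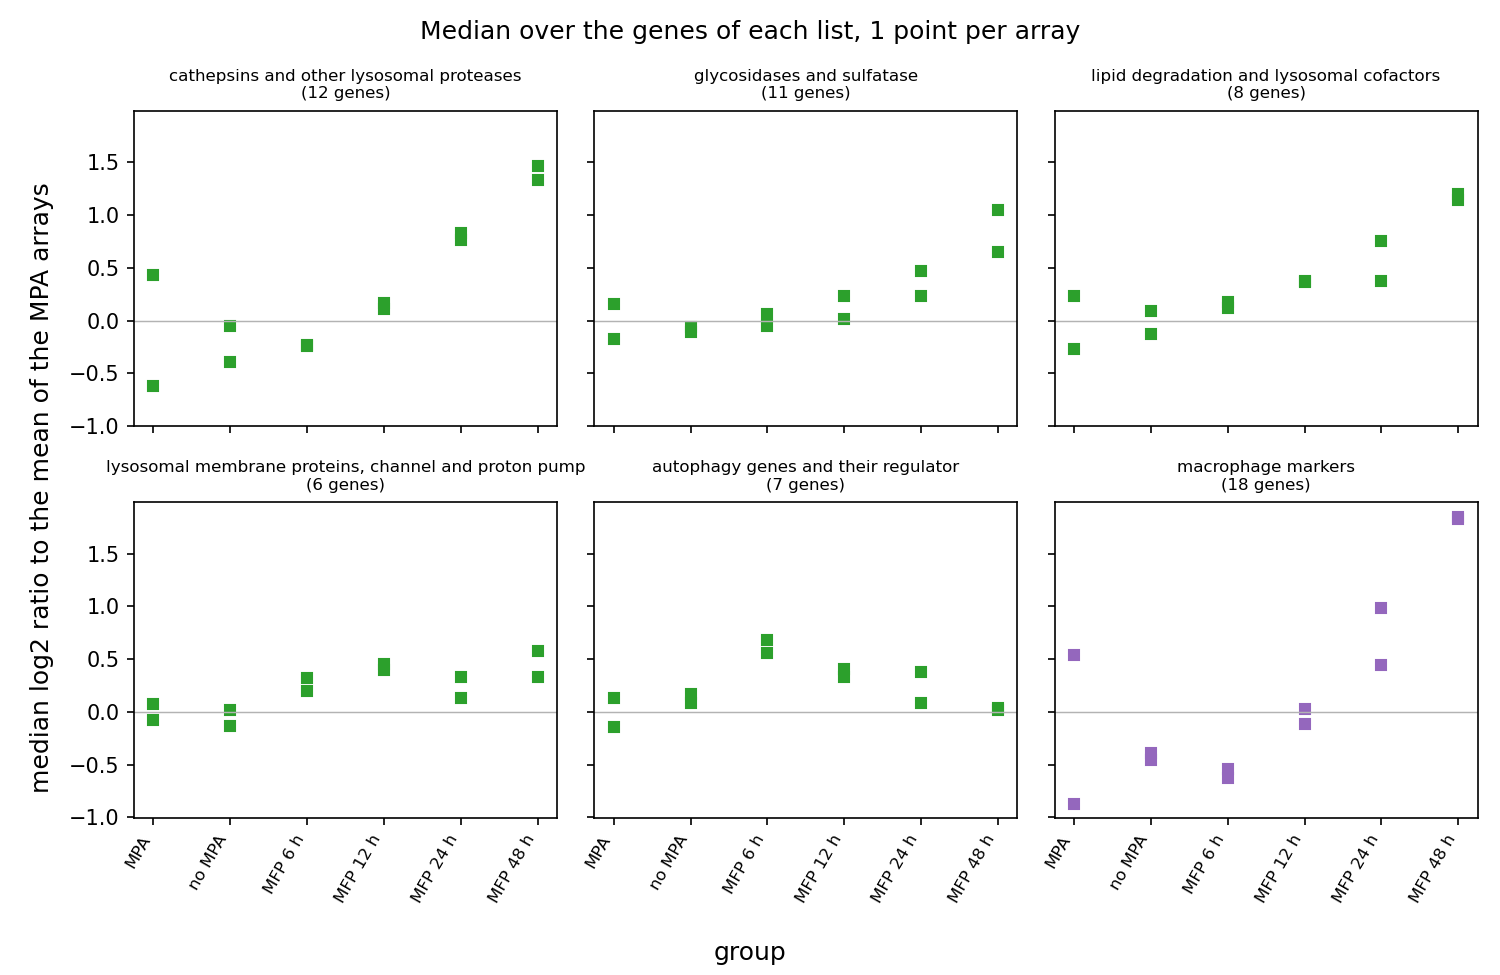
Median log2 ratio relative to MPA (vertical axis) over the genes of each role and over 18 macrophage markers, by group (horizontal axis), with 1 point per array. The protease and macrophage medians both climb to 48 h of MFP, the former to 1.33 and 1.47, while the autophagy median is highest at 6 h.

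Markers of osteoclasts and giant cells, which share Ctsk and Atp6v0d2 with macrophages, had 2 rises among 8 at 48 h against MPA (median 0.51). Of all genes 6.48% rose. The 2 were the gelatinase gene Mmp9 (2.11 ± 0.48) and the integrin gene Itgb3 (1.67 ± 0.41). The osteoclast phosphatase gene Acp5 stood at 0.50 ± 0.36.

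Other genes of the pathway were read from lists written by function. At 48 h against MPA 6.48% of all genes rose and 6.02% fell. Of 15 further lysosomal hydrolase and cofactor genes 4 rose at 48 h against MPA and none fell (median 0.43), led by Ctso, another cysteine cathepsin gene (1.67 ± 0.27, adjusted p = 0.00625), and Galc, of the enzyme that degrades galactosylceramide (1.31 ± 0.29). Of 14 membrane and sorting genes 1 rose and 2 fell (median 0.28). The cystine exporter gene Ctns rose at 12 h (2.05 ± 0.42, adjusted p = 0.0247), 24 h (1.65 ± 0.42) and 48 h (1.43 ± 0.42, adjusted p = 0.0497). Sort1, a sorting receptor gene, fell at 48 h (-1.92 ± 0.39), and so did Slc38a9, of a lysosomal amino acid sensor (-1.47 ± 0.28).

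Proton pump subunits had 4 rises (6.48% of all genes) and no fall (6.02%) among 14 at 48 h against MPA (median 0.32). Atp6v0a1 (1.33 ± 0.30) and Atp6v0b (0.85 ± 0.24) came first. Among 26 other autophagy genes 3 rose and 1 fell (median -0.10), beside the same shares of all genes. Gabarap, the namesake of the family of Gabarapl1, rose at 48 h (1.33 ± 0.27, adjusted p = 0.0134), as did Wipi1 (1.23 ± 0.28), while Pik3c3, the lipid kinase gene, fell (-1.08 ± 0.30). Of 5 cathepsin inhibitor genes Cstb, of cystatin B, rose (1.66 ± 0.28). Of the 3 relatives of Tfeb, Mitf rose at 48 h (1.76 ± 0.39, adjusted p = 0.0176) and Tfe3 stood at 0.42 ± 0.19 and Tfec at 0.35 ± 0.39.

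The motif of TFEB and its relatives was searched in the promoters. These factors are known to bind promoters of many genes of this kind, so a high share in the list is no independent result. RefSeq promoter windows (GRCm38.p6, 250 bases before to 50 after the start site) matched 39 of the 45 listed genes. The 7 letters TCACGTG, searched on both strands (CACGTGA on the other) and containing the palindrome CACGTG, occurred in 11 of the 39 (28.2%), against 4.29% of 27025 genes with a window. Those 27025 genes were taken whether or not the arrays measured them. CACGTG with any neighbouring base occurred in 13 of the 39 (33.3%), against 8.09% of all genes. Holders of TCACGTG were Ctsa, Ctsd, Lgmn, Dpp7, Gla, Glb1, Naglu, Gaa, Lamp1, Mcoln1 and Atg7. Their differences between MFP 48 h and MPA had a median of 0.89, with 2 rises among 11, and those of the 27 measured members without it a median of 0.96, with 13 rises and 1 fall. At 24 h the medians were 0.61 and 0.54. Cd63 has a window and no measurement.

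Windows are shown from 250 bases to 1 base before the start site, 5' to 3' on the strand of the gene, with TCACGTG and CACGTGA in capitals. The first pair rose late and holds the motif (Ctsd at chr7:142387828-142388077 (minus strand) and Gla at chrX:134601006-134601255 (minus strand)). The second pair holds it close to the start site and did not pass at 48 h against MPA (Lamp1 at chr8:13158911-13159160 (plus strand) and Mcoln1 at chr8:3500269-3500518 (plus strand)). The last pair was called at 6 h and has no match here (Tpp1 at chr7:105752236-105752485 (minus strand) and Map1lc3b at chr8:121590188-121590437 (plus strand)).
Ctsd: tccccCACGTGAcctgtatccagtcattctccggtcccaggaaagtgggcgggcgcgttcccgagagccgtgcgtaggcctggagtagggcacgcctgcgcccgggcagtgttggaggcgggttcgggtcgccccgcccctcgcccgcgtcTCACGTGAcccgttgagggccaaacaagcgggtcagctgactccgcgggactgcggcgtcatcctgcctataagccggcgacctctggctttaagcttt
Gla: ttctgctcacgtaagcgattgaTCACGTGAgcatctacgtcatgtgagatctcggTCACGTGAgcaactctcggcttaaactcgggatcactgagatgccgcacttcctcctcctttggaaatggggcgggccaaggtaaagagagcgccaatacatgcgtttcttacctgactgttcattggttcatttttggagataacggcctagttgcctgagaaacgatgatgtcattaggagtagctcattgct
Lamp1: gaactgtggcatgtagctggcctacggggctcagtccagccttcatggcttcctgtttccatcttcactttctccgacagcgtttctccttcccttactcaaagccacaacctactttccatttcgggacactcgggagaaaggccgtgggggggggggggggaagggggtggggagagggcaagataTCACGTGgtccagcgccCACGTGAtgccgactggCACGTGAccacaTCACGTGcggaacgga
Mcoln1: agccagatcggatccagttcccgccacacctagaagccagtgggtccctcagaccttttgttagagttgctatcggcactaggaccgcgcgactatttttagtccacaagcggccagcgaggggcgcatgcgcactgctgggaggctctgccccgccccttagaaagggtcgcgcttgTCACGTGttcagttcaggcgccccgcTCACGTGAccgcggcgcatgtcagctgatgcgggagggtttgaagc
Tpp1: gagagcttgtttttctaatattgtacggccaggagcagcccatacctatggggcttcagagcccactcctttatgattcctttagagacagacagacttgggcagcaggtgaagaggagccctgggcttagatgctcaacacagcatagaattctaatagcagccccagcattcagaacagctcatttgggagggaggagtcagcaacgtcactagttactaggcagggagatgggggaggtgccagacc
Map1lc3b: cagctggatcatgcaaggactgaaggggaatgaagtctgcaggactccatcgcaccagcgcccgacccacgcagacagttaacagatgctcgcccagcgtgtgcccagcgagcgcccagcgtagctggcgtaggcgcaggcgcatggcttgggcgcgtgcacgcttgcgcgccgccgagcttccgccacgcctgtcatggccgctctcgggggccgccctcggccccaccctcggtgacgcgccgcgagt
Runs of capitals began at positions -245 and -99 from the start site in Ctsd, -228 and -195 in Gla, -62, -45, -28 and -16 in Lamp1, and -72 and -46 in Mcoln1, and a run longer than the motif holds overlapping matches on both strands. A match of letters is a description of the window, and binding was not measured here.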

How the data were processed

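GCRMA, which corrects background and summarises probes, made the values, per the submitters' processing notes; the sources used here give no version. Per the labels' protocols, 200 ng of RNA from fixed tumours entered the labelling. The authors deposited log2 values for 45101 probe sets. In 45099 of these the 2 MPA arrays have a linear mean of 1 (tolerance 0.0001), so values are ratios to it and signal over background is lost. The difference between the 2 MPA arrays is kept. Over the members it had a mean size of 0.70, against 0.23 to 0.34 in the other groups. Replicates differed with an SD of 0.39 to 0.56 over all probe sets, and no pair was identical.

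Symbols came from the platform annotation, updated through RefSeq gene identifiers. Of the probe sets 34945 had 1 symbol, 932 several, 9160 none here and 64 were controls. limma 3.58.1 in R 4.3.3 fitted 1 mean per group over the 12 arrays (6 residual and 4.21 prior degrees of freedom), with contrasts between groups, and a slope on log2 hours over the 8 MFP arrays. The 2 arrays per group limit the precision. On data simulated for 18161 genes, MFP 48 h versus MPA recovered 28.3% of log2 changes of 1 and 83.0% of changes of 2 (4.43% false calls). The slope recovered 27.5% and 81.5% (4.96% false calls). Whether these shares hold for the deposited arrays was not tested. Over the members, the MPA arrays deposited lay further apart than the replicates of any other group.

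Named were a fixed list of 21 members with every array, up to 6 rises and 6 falls per comparison, and up to 2 genes per direction of each pathway list. The remaining members, Acp5, Tfe3 and Tfec are given for completeness. The members and lists were chosen with earlier results of these data known. Alternatives changed the probe set of a gene, the arrays in the fit, weights, scaling, variance moderation, the Actb covariate, a filter on SD, and left out each array. RefSeq promoter windows were searched as text.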

Additional observations from a re-analysis of the deposited data

Results flagged for a closer look

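Values differed between the MFP times for 18 of the 44 members, against 11.2% of all genes. The test was a linear slope over log2 time among the 8 MFP arrays (limma, adjusted p under 0.05 over 18161 genes). No group without MFP was labelled 6 h, 12 h or 24 h, so time under MFP and time since the end of MPA cannot be told apart. Among proteases the slopes per doubling of time that passed were Ctsc (0.92), Lgmn (0.80), Ctsb (0.77), Ctsh (0.73), Ctsl (0.52), Ctss (0.52), Ctsd (0.50) and Ctsa (0.35). Among the glycosidase genes they were Gusb (0.59), Gla (0.54), Man2b1 (0.35) and Hexa (0.33). Genes of lipid breakdown and cofactors had Lipa (0.71), Npc2 (0.60), Grn (0.46), Npc1 (0.41) and Psap (0.29). Gabarapl1 had the only slope below 0 that passed (-0.57), in the probe set shown. With 1 MFP array left out at a time, 14 to 18 members passed.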

How the results depend on the processing

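Counts of called members are compared here with 2 at 6 h, 2 at 12 h, 10 at 24 h, 20 at 48 h, 23 against no MPA and 18 for the slope. With the Actb 3' minus 5' difference as a covariate 0 members were called at 6 h, 12 h, 24 h, 48 h, against no MPA and for the slope, and at most 0.00551% of all genes passed. That difference follows the groups, so its effect and theirs cannot be told apart. Fitted on the arrays of the compared groups alone, 0 members were called at 6 h, 12 h, 24 h and 48 h against MPA, and 19 against no MPA. Of all genes 0%, 0%, 0.639%, 0.237% and 9.22% were called in that fit. Quantile normalization gave 1 at 6 h, 1 at 12 h, 0 at 24 h, 0 at 48 h and 1 against no MPA. The shares of all genes were then 0.385%, 0.721%, 0.149%, 0% and 0.639%. It forces 1 spread on arrays whose SD over probe sets ran from 0.25 in MPA to 0.74 at 24 h. The MPA values are ratios to the mean of the same 2 arrays, which keeps their SD low. The slope, which uses no MPA array, had 16 calls after quantile normalization (10.9% of all genes). The mean of a gene's probe sets gave 4 at 12 h (4.76% of all genes). A filter that left out the genes with the lowest SD gave 1 at 6 h (1.31% of all genes kept). Array weights, centring on array medians, robust moderation and leaving out shared probe sets kept each count within 1.5 times.

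Leaving out 1 array at a time gave 0 members each time at 6 h, 0 to 7 at 12 h, 3 to 14 at 24 h, 9 to 22 at 48 h, 8 to 12 against no MPA, 14 to 18 for the slope and 0 each time for no MPA against MPA. A group left with 1 array is assumed to vary like the others. No called member changed its sign under any alternative tried. No paired analysis was possible because the labels give no replicate numbers. Signal over background is unknown.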
